A study of Mus musculus with 15 samples.

Results

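The p53 pathway and apoptosis target genes described here are 34 genes of mouse embryonic stem (ES) cells: p53 itself, its closest partners and the targets through which it stops the cell cycle, starts cell death, repairs DNA and changes metabolism. They were taken by gene symbol from a table of 18762 genes, and all 34 were found, in each of 15 libraries. The study set Mettl5-/- cells (knockout, KO) beside wild type (WT) cells of the C57BL/6N strain to see how the transcriptomes of the 2 genotypes compare before and after differentiation. KO cells grown for 6 days in N2B27 medium, which is used for neural differentiation, gave 3 libraries and WT cells in N2B27 gave 2. KO embryoid bodies (EBs), grown for 6 days without LIF, the factor that keeps ES cells undifferentiated, in dishes whose coating prevents attachment, gave 3 libraries and WT EBs gave 2. Untreated KO ES cells at day 0 gave 3 libraries and untreated WT ES cells gave 2. The KO libraries are numbered 1 to 3 in their titles, and the WT libraries carry the names Ctr (replicate 1 here) and WT (replicate 2 here). The labels do not say whether each name stands for 1 clone or whether the libraries come from separate cultures, so the p-values measure only the spread between these libraries.

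The protein p53, encoded by Trp53, is a transcription factor that binds DNA as a tetramer and is held at a low level by the ubiquitin ligase MDM2, whose own gene p53 activates. After DNA damage or faults in ribosome production p53 is freed from MDM2 and activates genes such as Cdkn1a, which halts the cell cycle, and Bbc3 and Pmaip1, which set off cell death at the mitochondria. Mouse ES cells are known to hold much p53 protein and to lack a firm G1 checkpoint. The METTL5 enzyme adds a methyl group to an adenosine in the RNA of the small ribosomal subunit.

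Mettl5 transcript levels separated the genotypes in each culture, with 3.29 to 6.41 FPKM (fragments scaled to transcript length and to library size) in KO N2B27 and 8.37 to 8.65 in WT N2B27, 5.22 to 9.07 in KO EBs and 17.70 to 19.79 in WT EBs, and 7.21 to 10.65 in KO ES cells and 19.03 to 20.85 in WT ES cells. KO N2B27 replicate 2 had the highest Mettl5 of the KO N2B27 libraries. The labels do not say which part of the gene was removed. The depth, estimated from the low values, was 16100000 to 18100000 fragments per library, and libraries of 1 group correlated across genes with r = 0.9857 to 0.9967. The cultures differed in marker genes, given as summed FPKM over the libraries of both genotypes. The 5 pluripotency markers had 67.98 to 162.66 in N2B27, 619.21 to 845.01 in EB and 2147.89 to 2269.24 in ES libraries. The 5 neural markers had 394.46 to 546.69 in N2B27, 50.42 to 81.66 in EB and 119.49 to 134.92 in ES libraries. Tubb3 alone had 110.26 to 125.63 FPKM in ES libraries. The 5 epithelial markers had 278.14 to 582.81 in N2B27, 491.90 to 616.92 in EB and 104.55 to 118.99 in ES libraries. The 7 mesoderm and endoderm markers had 17.80 to 38.02 in N2B27, 27.13 to 124.88 in EB and 1.5 to 2.9 in ES libraries. Since these are bulk samples, fewer cells of a type and less RNA per cell cannot be told apart in any value below.

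None of the 34 members was listed at 0 in any library, and all 34 reached 1 FPKM in at least 2 libraries, which was the condition for testing, met by 12929 genes. Trp53 had the highest FPKM of the members in all ES libraries, and Fas, a death receptor, had the lowest in every ES library, at 0.04 to 0.32. One fragment on a transcript of 1 kb is worth about 0.0552 to 0.0621 FPKM at the estimated depth, so Fas in ES cells rests on few fragments. Trp53 overlaps Wrap53 on the other strand, and the labels do not say whether counting used the strand, so reads of the 2 genes may be mixed.

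To show how the DNA to which p53 binds looks at these genes, promoter windows of 250 bases before to 50 bases after the transcription start were taken from RefSeq (build GRCm38.p6), where 26 of the 34 members had an entry and Ddb2, Perp, Pmaip1, Rrm2b, Tnfrsf10b, Trp53inp1, Xpc and Zmat3 had none. They were searched for the p53 half-site, which reads the same on both strands. A half-site was present in 10 of the 26 members (38.5%), namely Aen, Bax, Ccng1, Cdkn1a, Ei24, Gtse1, Mdm2, Polk, Sesn1 and Trp53, and in 862 of the 10362 tested genes with an entry (8.32%). A full site, 2 half-sites separated by 0 to 13 bases, was present in Cdkn1a alone of the 26 members (3.85%) and in 6 of the 10362 genes (0.0579%). The 5 windows below are a choice among the genes that the results come back to, with half-sites in capitals. Trp53 and Bax, to which the results also return, are not printed. In Cdkn1a the half-sites began at positions -73 and -51 from the start, in Mdm2 at -186, in Ccng1 at -185, in Ei24 at -10 and in Sesn1 at -173. The windows of Sesn1 and Polk that hold a half-site belong to starts inside these genes, which span chr10:41810574-41908436 and chr13:96480687-96542579. A match of letters is a description and not a measured site. The best described p53 sites of mouse Mdm2 lie outside such windows, in its first intron. In Cdkn1a the bases directly after the second half-site, tgacatgttc, differ from the searched half-site at their first letter and are not in capitals.
Cdkn1a, chr17:29090729-29091028, plus strand: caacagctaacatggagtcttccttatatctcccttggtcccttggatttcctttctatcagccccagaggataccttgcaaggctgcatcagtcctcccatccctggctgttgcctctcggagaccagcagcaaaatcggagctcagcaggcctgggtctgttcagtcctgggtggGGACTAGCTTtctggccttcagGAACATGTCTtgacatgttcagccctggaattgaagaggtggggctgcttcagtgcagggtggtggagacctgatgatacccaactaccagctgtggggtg
Mdm2, chr10:117710709-117711008, minus strand: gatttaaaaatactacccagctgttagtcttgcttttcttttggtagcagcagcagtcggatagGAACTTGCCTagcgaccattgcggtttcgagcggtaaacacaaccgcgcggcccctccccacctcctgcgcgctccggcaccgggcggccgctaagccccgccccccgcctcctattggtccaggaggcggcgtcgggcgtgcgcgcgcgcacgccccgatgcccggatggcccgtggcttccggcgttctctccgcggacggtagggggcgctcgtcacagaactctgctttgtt
Ccng1, chr11:40755237-40755536, minus strand: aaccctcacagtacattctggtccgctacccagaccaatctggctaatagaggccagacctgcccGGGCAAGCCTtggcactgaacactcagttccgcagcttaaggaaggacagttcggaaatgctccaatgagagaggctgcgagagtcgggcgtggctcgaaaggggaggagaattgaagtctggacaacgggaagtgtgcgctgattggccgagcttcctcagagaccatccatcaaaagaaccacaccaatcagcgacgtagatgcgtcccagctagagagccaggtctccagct
Ei24, chr9:36797285-36797584, minus strand: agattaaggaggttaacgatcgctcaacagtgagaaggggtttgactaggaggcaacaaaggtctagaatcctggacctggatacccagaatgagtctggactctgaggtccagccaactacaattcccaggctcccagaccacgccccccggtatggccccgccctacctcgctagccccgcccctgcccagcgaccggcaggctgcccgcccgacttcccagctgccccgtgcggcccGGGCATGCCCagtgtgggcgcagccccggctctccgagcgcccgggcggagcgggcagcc
Sesn1, chr10:41887189-41887488, plus strand: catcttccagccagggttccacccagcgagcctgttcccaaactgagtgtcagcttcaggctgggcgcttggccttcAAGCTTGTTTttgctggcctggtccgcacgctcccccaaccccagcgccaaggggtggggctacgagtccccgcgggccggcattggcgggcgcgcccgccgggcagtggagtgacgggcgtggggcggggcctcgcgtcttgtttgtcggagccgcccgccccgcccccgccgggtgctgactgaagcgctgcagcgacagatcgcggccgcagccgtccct

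In N2B27 cultures 30 of the 34 members had a log2 difference, KO minus WT, below 0, but none of the 34 passed the test. The test was limma on log2(FPKM + 1), with p-values adjusted by the Benjamini-Hochberg method over all 12929 genes, and a member counts as called when its adjusted p is below 0.05. In the KO against WT comparison in N2B27, 0 of 34 members and 0.101% of all genes were called. At an unadjusted p below 0.05, 14 members were lower in KO and 0 higher, against 4.69% of all genes that were lower and 4.16% that were higher at this level. The median log2 difference, KO minus WT, was -0.21 over the members and -0.02 over all genes tested, and 55.6% of all genes lay below 0. Sesn1, Rrm2b, Tigar and Trp73 were the 4 members above 0. In 21 members every KO library lay below both WT libraries, against 13.2% of all genes, and in 0 members every KO library lay above both, against 8.88% of all genes. The members with this separation were chosen after their values were seen, and they were Aen, Ak1, Apaf1, Bax, Bbc3, Btg2, Ccng1, Cdkn1a, Eda2r, Ei24, Fas, Gdf15, Gtse1, Mdm2, Phlda3, Plk2, Pmaip1, Polk, Sesn2, Tap1 and Zmat3.

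**Figure D1:**
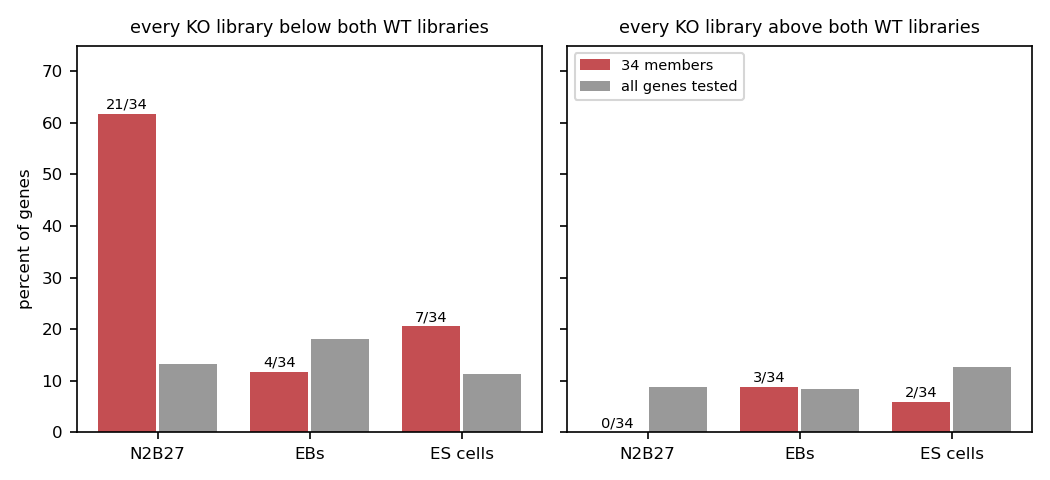
Percent of genes in which every KO library lay below both WT libraries (left panel) or above both (right panel) in N2B27, EBs and ES cells, for the 34 members (red, with their number) and all 12929 genes tested (grey). In N2B27, 21 of 34 members lay below, against 13.2% of all genes, while 7 lay below in ES cells and 4 in EBs.

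Among the genes of cell cycle and growth, Cdkn1a, which encodes the CDK inhibitor p21, had 151.43, 127.57 and 180.52 FPKM in KO N2B27, against 193.55 and 196.98 FPKM in WT N2B27. The KO libraries all lay below the WT libraries, with KO replicate 3 nearest to them. The log2 difference was -0.36 ± 0.11 (SE; n = 3 KO and 2 WT libraries; limma adjusted p = 0.256). Plk2, a polo-like kinase of stress responses, had 35.31, 34.07 and 42.74 FPKM in KO and 46.69 and 50.92 in WT, again with no overlap (log2 difference -0.38 ± 0.10, adjusted p = 0.178). Btg2, an antiproliferative cofactor of mRNA deadenylation, had 56.63, 60.01 and 62.65 FPKM in KO and 63.78 and 79.84 in WT, where the highest KO library nearly reached the lower WT library. Ccng1, which encodes cyclin G1, had 183.09, 164.43 and 202.05 FPKM in KO and 280.04 and 219.82 in WT, and its log2 difference was -0.44 ± 0.18 (adjusted p = 0.460). All 8 members of this role lay below 0 in N2B27, including Gtse1, Zmat3, Phlda3 and Plk3.

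Of p53 and its partners, Mdm2 was the 1 of 4 members with an unadjusted p below 0.05. It had 62.95, 68.32 and 72.29 FPKM in KO N2B27 and 79.90 and 93.99 in WT N2B27, with no overlap and a log2 difference of -0.35 ± 0.11 (limma adjusted p = 0.250). Trp53 itself had 217.53, 242.83 and 219.16 FPKM in KO and 254.47 and 232.55 in WT, where KO replicate 2 lay between the WT libraries, and its log2 difference was -0.10 ± 0.11 (adjusted p = 0.876). Mdm4, the relative of Mdm2 that holds p53 inactive, differed by -0.01 ± 0.12, and Trp73, a member of the p53 family, by 0.17 ± 0.16.

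Among the genes of cell death inside the cell, Pmaip1, which encodes the BH3-only protein NOXA, stood furthest apart. It had 1.56, 1.5 and 2.28 FPKM in KO N2B27, against 3.15 and 4.06 FPKM in WT N2B27, so that the KO mean was 0.494 of the WT mean. The log2 difference was -0.73 ± 0.16, less than for the FPKM themselves because 1 was added to each value before taking logs, and the adjusted p of 0.092 was the lowest of the 34 members. Bbc3, which encodes the BH3-only protein PUMA, had 30.43, 36.90 and 30.97 FPKM in KO and 41.54 and 44.27 in WT (log2 difference -0.38 ± 0.15, adjusted p = 0.432). Neither gene showed overlap between the genotypes. Ei24, a protein of the endoplasmic reticulum, had 74.64, 63.48 and 77.67 FPKM in KO and 101.06 and 88.33 in WT (-0.39 ± 0.09, adjusted p = 0.129). Bax, the pore-forming protein of the outer mitochondrial membrane, had 152.67, 143.67 and 125.37 FPKM in KO and 166.33 and 154.77 in WT, with little room between the groups and a log2 difference of -0.19 ± 0.11 (adjusted p = 0.650). Apaf1, the scaffold of the apoptosome, differed by -0.28 ± 0.11, and all 8 members of this role lay below 0.

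The 3 death receptors lay below 0 as well. Fas had 0.50, 0.76 and 1.41 FPKM in KO N2B27 and 1.64 and 1.59 in WT N2B27 (log2 difference -0.50 ± 0.16, limma adjusted p = 0.324), and Eda2r, the receptor of an ectodysplasin isoform, had 21.09, 19.12 and 24.86 FPKM in KO and 25.85 and 31.30 in WT (-0.38 ± 0.15, adjusted p = 0.469). In both the KO libraries lay below the WT libraries, whereas Tnfrsf10b, the mouse TRAIL receptor, had 41.51, 45.61 and 56.46 FPKM in KO and 45.70 and 61.63 in WT, which overlap. In metabolism and stress, Ak1, an adenylate kinase, had 40.64, 43.22 and 45.95 FPKM in KO and 54.98 and 52.30 in WT, a gap larger than the spread within either group (-0.30 ± 0.08, adjusted p = 0.163). Sesn2, a sestrin that restrains mTORC1, had 64.88, 67.52 and 65.79 FPKM in KO and 77.57 and 76.46 in WT (-0.22 ± 0.09). Tap1, a transporter of peptides for antigen presentation, had 12.72, 13.05 and 14.17 FPKM in KO and 15.96 and 17.12 in WT (-0.29 ± 0.13). Of the 4 genes of DNA repair and nucleotide supply only Polk, a DNA polymerase that copies past lesions, had all KO libraries below the WT libraries, and none of the 4 had an unadjusted p below 0.05.

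**Figure D2:**
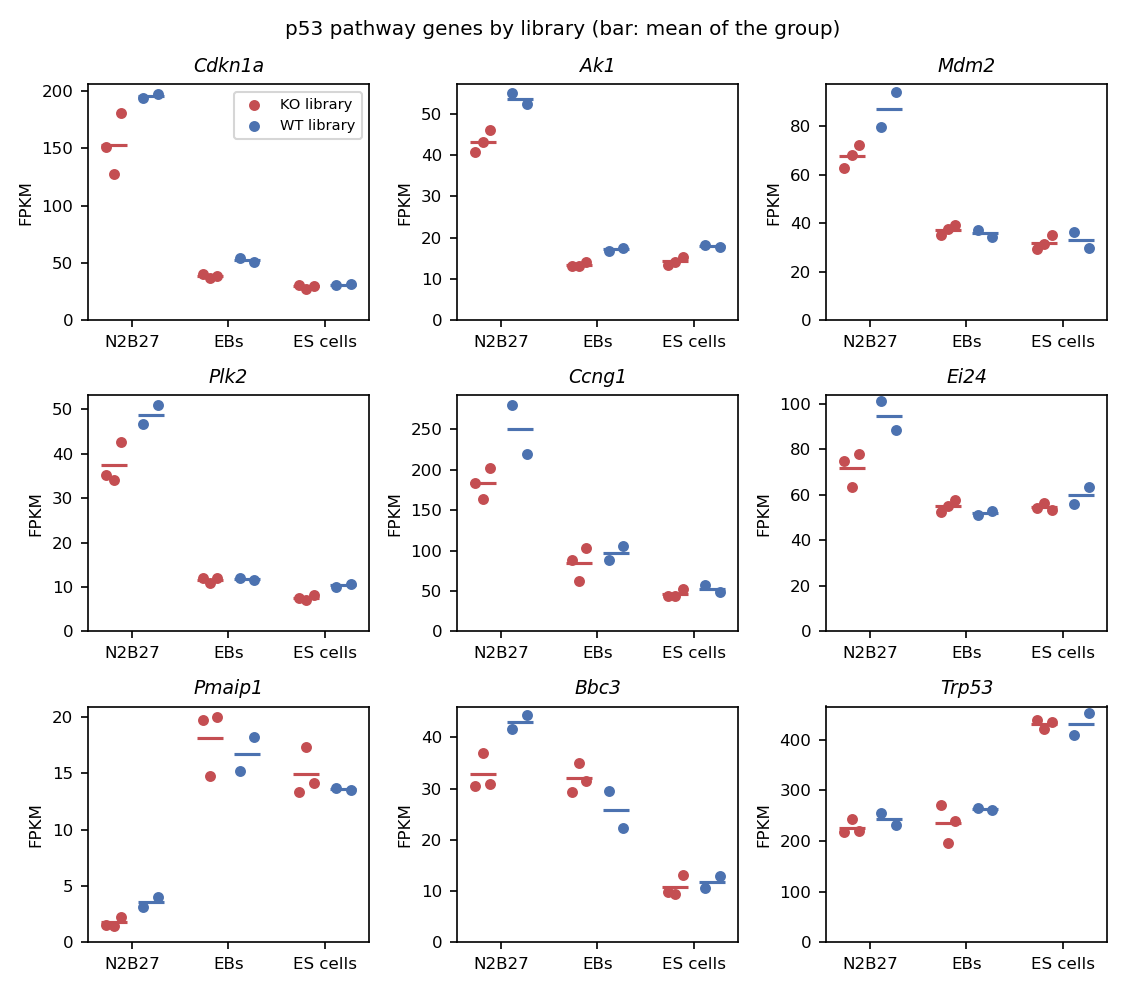
FPKM of 9 members in each library of N2B27 (day 6), EBs (day 6) and ES cells (day 0), each point 1 library, KO in red and WT in blue, each bar the mean of its group. In N2B27 Cdkn1a had 127.57 to 180.52 FPKM in KO libraries and 193.55 to 196.98 in WT libraries, while Trp53 overlapped between the genotypes.

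Without KO N2B27 replicate 3, 2 members were called in N2B27: Cdkn1a with a log2 difference of -0.49 (limma adjusted p = 0.0426) and Pmaip1 with -0.86 (adjusted p = 0.0424). The share of all genes called in this fit was not counted. Taken 1 library at a time, KO replicates 1, 2 and 3 had 27, 27 and 24 members below both WT libraries, where 31.7%, 37.8% and 38.6% of all genes lay below both. Marker genes also differed between these libraries. KO replicate 2 had 129.55 FPKM of Pou5f1 and 20.88 of T, against 66.87 and 71.95 FPKM of Pou5f1 and 8.21 and 8.27 of T in the other KO libraries. The 5 pluripotency markers summed to 83.95 to 162.66 FPKM in KO N2B27 and 67.98 to 103.46 in WT N2B27, the 5 neural markers to 394.46 to 543.95 in KO and 503.05 to 546.69 in WT, the 7 mesoderm and endoderm markers to 17.80 to 31.53 in KO and 25.45 to 38.02 in WT, the 5 epithelial markers to 380.46 to 582.81 in KO and 278.14 to 476.97 in WT, and the 5 fibroblast markers to 9.02 to 12.57 in KO and 8.94 to 15.08 in WT. None of these markers was at 0 or called between the genotypes in N2B27, and 2 of 5 pluripotency, 4 of 5 neural, 4 of 7 mesoderm and endoderm, 0 of 5 epithelial and 4 of 5 fibroblast markers lay below 0. Without KO N2B27 replicate 2 the members' median was -0.24, where that of all genes was -0.01. The part of the marked cell types in the members' values was not tested.

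In EBs the members had no common direction between the genotypes. The median log2 difference, KO minus WT, was 0.01 over the 34 members and -0.04 over all genes, and 15 members lay below 0, against 61.1% of all genes. Ak1 was the 1 member called, lower in KO, where 1.62% of all genes were called lower, and 0 members were called higher, where 0.65% of all genes were. Ak1 (chr2:32621758-32635058 of GRCm38.p6) had 13.09, 13.15 and 14.11 FPKM in KO EBs, against 16.89 and 17.48 FPKM in WT EBs. The groups were well apart, with a log2 difference of -0.33 ± 0.08 (SE; n = 3 KO and 2 WT libraries; limma adjusted p = 0.0413). The call was lost under several alternatives, as the adjusted p was 0.0658 to 0.285 when any 1 of the 5 EB libraries was left out (0.0658 without KO replicate 2, 0.0706 without KO replicate 1, 0.0888 without KO replicate 3, 0.109 without WT replicate 1 and 0.285 without WT replicate 2), 0.0813 with median-ratio scaling and 0.312 when only the EB libraries were fitted.

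Cdkn1a came next, with 40.54, 36.60 and 38.86 FPKM in KO EBs and 54.04 and 50.59 in WT EBs. Again no KO library reached a WT library, but the log2 difference of -0.43 ± 0.11 missed the threshold (limma adjusted p = 0.0600). Ak1 and Cdkn1a were the 2 members lower at an unadjusted p below 0.05, where 9.85% of all genes were, and 2 members were higher at this level, where 4.81% of all genes were. Sesn1, a sestrin like Sesn2, had 7.25, 7.44 and 7.63 FPKM in KO EBs and 5.69 and 6.05 in WT EBs (0.30 ± 0.09, adjusted p = 0.0955), and Plk3, a further polo-like kinase, had 7.63, 7.08 and 7.07 FPKM in KO and 5.16 and 5.36 in WT (0.40 ± 0.16, adjusted p = 0.246). Both lay above WT in every KO library.

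Every KO EB library lay below both WT EB libraries in 4 members (Ak1, Btg2, Cdkn1a and Tnfrsf10b), against 18.1% of all genes, and above both in 3 (Perp, Plk3 and Sesn1), against 8.34% of all genes. Btg2 had 22.53, 25.49 and 24.71 FPKM in KO EBs and 27.49 and 25.73 in WT EBs, where the groups almost touch. Trp53 had 271.60, 195.73 and 238.75 FPKM in KO EBs and 264.76 and 261.42 in WT EBs, Mdm2 had 35.33, 37.55 and 39.15 in KO and 37.23 and 34.54 in WT, and Bax had 142.90, 112.93 and 130.68 in KO and 118.03 and 129.42 in WT. These 3 genes overlapped between the genotypes, with KO replicate 2 lowest in Trp53 and Bax. Ccng1 overlapped too, with 87.88, 62.85 and 103.28 FPKM in KO EBs and 88.64 and 105.15 in WT EBs. In the same EBs the 7 mesoderm and endoderm markers summed to 27.13 to 81.81 FPKM in KO and 97.62 to 124.88 in WT, all 7 lay below 0 and 3 (Hand1, Gata4 and Kdr) were called lower in KO. The part of these cell types in the members' values was not tested.

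**Figure D3:**
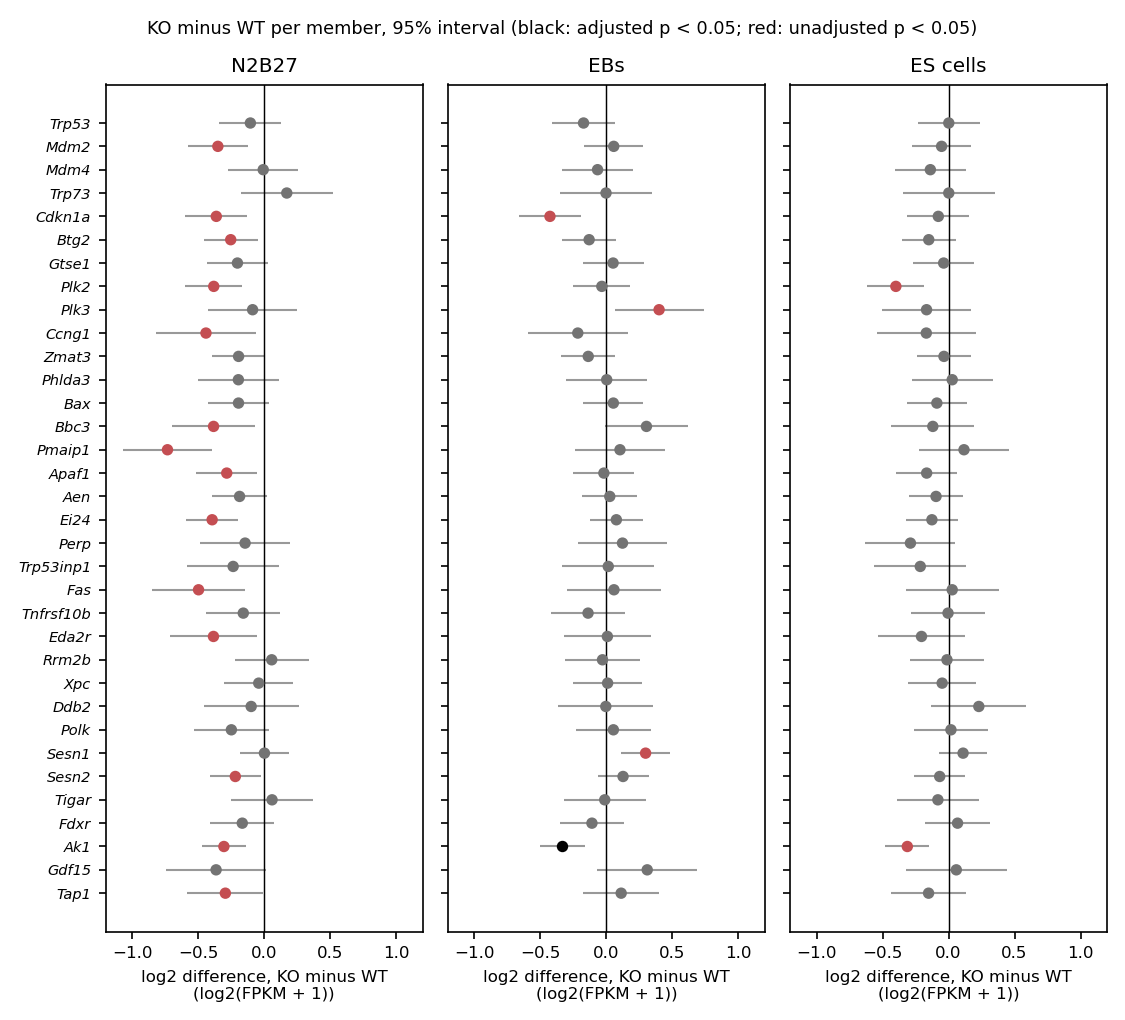
Log2 difference, KO minus WT on the log2(FPKM + 1) scale, of each of the 34 members in N2B27, EBs and ES cells, with its 95% interval from limma; the black point has an adjusted p below 0.05 and red points an unadjusted p below 0.05. In N2B27, 30 of 34 points lie below 0, and the 1 black point is Ak1 in EBs.

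In ES cells no member was called between KO and WT, and neither was any other of the 12929 genes tested (0.0%). Mettl5 itself was thus not called, at 7.21 to 10.65 FPKM in KO ES cells and 19.03 to 20.85 in WT ES cells. The lack of a call in ES cells therefore does not show that a gene is unchanged. At an unadjusted p below 0.05, 2 members were lower, against 1.32% of all genes, and 0 were higher, against 2.13% of all genes. Plk2 had 7.56, 7.0 and 8.29 FPKM in KO ES cells and 10.03 and 10.66 in WT ES cells (log2 difference -0.40 ± 0.10, limma adjusted p = 0.835). Ak1 had 13.42, 14.06 and 15.39 FPKM in KO ES cells and 18.20 and 17.72 in WT ES cells (-0.31 ± 0.08, adjusted p = 0.835). Both genes were apart in every library. The median over the members was -0.07, against 0.00 over all genes, and 24 of the 34 members lay below 0, against 49.2% of all genes. Every KO library lay below both WT libraries in 7 members (Aen, Ak1, Btg2, Cdkn1a, Plk2, Plk3 and Tigar), against 11.3% of all genes, and above both in 2 (Gdf15 and Sesn1), against 12.7% of all genes. With median-ratio scaling the number below was 4. Without 1 ES library it lay between 7 and 15, but leaving out a library can only keep or raise it, for members and all genes alike.

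The genes at the head of the pathway overlapped in ES cells. Trp53 had 439.29, 420.69 and 434.63 FPKM in KO ES cells and 410.23 and 452.67 in WT ES cells, Mdm2 had 29.32, 31.45 and 35.13 in KO and 36.54 and 29.98 in WT, and Bax had 171.60, 157.96 and 166.46 in KO and 164.25 and 188.11 in WT. Cdkn1a had 30.66, 27.74 and 30.39 FPKM in KO and 31.09 and 31.42 in WT, and Ccng1 had 43.51, 44.29 and 52.73 in KO and 57.18 and 48.33 in WT. For Cdkn1a the groups were apart by less than 1 FPKM, and the 95% interval of the log2 difference ran from -0.31 to 0.16.

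Ak1, Btg2 and Cdkn1a were the 3 members whose KO libraries lay below the WT libraries in all 3 cultures, against 0.65% of all genes. Over the means of the 3 cultures of each library name, 0 of 34 members were called, against 0.0541% of all genes, and 6 were lower at an unadjusted p below 0.05, against 6.96% of all genes, with 0 higher, against 4.59% of all genes. The largest log2 differences of these 6 were -0.32 ± 0.06 for Ak1 (limma adjusted p = 0.0978) and -0.29 ± 0.07 for Cdkn1a (adjusted p = 0.173), followed by Ccng1, Plk2, Btg2 and Ei24. The median over the members was -0.09 and that over all genes -0.02.

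Plk3 and Gdf15 lay on opposite sides in different cultures. Plk3 had 24.80, 22.35 and 24.23 FPKM in KO ES cells and 26.50 and 27.11 in WT ES cells, below WT, whereas it lay above WT in EBs as given above. The difference between the 2 effects was 0.57 ± 0.22 (limma adjusted p = 0.510). Gdf15, a secreted stress cytokine, had 4.97, 5.21 and 4.96 FPKM in KO ES cells and 4.74 and 4.87 in WT ES cells, and 0.26, 0.73 and 0.50 in KO N2B27 and 0.78 and 1.05 in WT N2B27. Here the difference between the 2 effects was -0.42 ± 0.25 (adjusted p = 1.0), so neither change of side passed its test.

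Whether the change in culture differed between the genotypes was tested as an interaction. No member was called in EBs against ES cells, where 0.155% of all genes were, or in N2B27 against ES cells, where 0.00773% were. At an unadjusted p below 0.05 in EBs against ES cells, 2 members (Plk2 and Plk3) were higher and 1 (Cdkn1a) lower, where 2.0% of all genes were higher and 5.66% lower. In N2B27 against ES cells 0 members were higher and 2 (Pmaip1 and Fas) lower at this level, where 1.86% of all genes were higher and 2.93% lower. Over 34 members, these counts differ from the shares of all genes by less than 2 members. Comparing the genotype difference in N2B27 with that in EBs, a comparison added after seeing the data, gave 0 called members, where 0.441% of all genes were called, and 11 lower at an unadjusted p below 0.05, where 3.77% of all genes were lower, with 0 higher, where 6.27% of all genes were. Its median was -0.25 over the members and 0.03 over all genes. The most negative was Pmaip1 at -0.84 ± 0.22 (limma adjusted p = 0.140), followed by Bbc3 at -0.69 ± 0.21 (adjusted p = 0.195). Without KO EB replicate 2, Pmaip1 (-0.97, adjusted p = 0.0485) and Sesn2 (-0.45, adjusted p = 0.0380) were called, and the share of all genes called in that fit was not counted.

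Between cultures most members passed the test. In N2B27 against ES cells, 22 members rose and 10 fell in KO cells, where 43.5% of all genes rose and 33.2% fell, and 22 rose and 8 fell in WT cells, where 41.5% of all genes rose and 29.2% fell. Of these, 15 rose and 3 fell by at least 2-fold in KO, and 17 rose and 4 fell by at least 2-fold in WT, on the log2(FPKM + 1) scale. The share of all genes at this cut was not counted, so these numbers cannot be set against it. The median log2 difference was 0.75 over the members and 0.11 over all genes in KO, and 1.07 over the members and 0.12 over all genes in WT. With scaling to TPM the median of all genes moved to 0.22 in both genotypes and that of the members to 0.99 in KO and 1.21 in WT. The comparisons of N2B27 and of EBs share the ES libraries of their genotype.

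On the log2(FPKM + 1) scale Tap1, Btg2 and Cdkn1a had the largest increases of the 34 members in N2B27 in both genotypes. By the ratio of mean FPKM, with nothing added, Tap1 was again the highest, but Trp73 in KO (6.75) and Fas in WT (12.4) came above both Btg2 and Cdkn1a, and Fas in KO (5.67) came above Cdkn1a, with Fas and Trp73 under 1 FPKM in ES cells. Tap1 had 12.72 to 14.17 FPKM in KO N2B27, against 0.67, 0.81 and 0.87 FPKM in KO ES cells, a 17.0-fold ratio of means and a log2 difference of 3.0 ± 0.12 (limma adjusted p = 2.06e-11), and 15.96 and 17.12 FPKM in WT N2B27, against 0.82 and 1.15 in WT ES cells (3.15 ± 0.15, adjusted p = 2.14e-10). Btg2 stood 6.52-fold higher in KO N2B27, against 9.0, 8.84 and 9.66 FPKM in KO ES cells (2.58 ± 0.09), and 6.98-fold higher in WT N2B27, against 9.77 and 10.80 FPKM in WT ES cells (2.68 ± 0.11). Cdkn1a (chr17:29090979-29100722 of GRCm38.p6) rose 5.18-fold in KO (log2 difference 2.32 ± 0.10, adjusted p = 3.74e-11) and 6.25-fold in WT (2.61 ± 0.12, adjusted p = 1.92e-10). No N2B27 library of these 3 genes came near an ES library.

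Further genes of cell cycle and growth rose with them. Plk2 rose 4.91-fold in KO N2B27 (2.15 ± 0.09) and 4.72-fold in WT N2B27 (2.13 ± 0.11), and Ccng1 rose 3.91-fold in KO (1.95 ± 0.16) and 4.74-fold in WT (2.22 ± 0.19). Zmat3, an RNA-binding zinc finger protein, and Phlda3, an inhibitor of AKT, rose in both genotypes by 0.79 to 1.16 on the log2 scale. Plk3 fell in both, by 0.52 in KO and 0.60 in WT. Gtse1, a microtubule protein of G2 phase, was called lower in KO at -0.28 ± 0.10 (limma adjusted p = 0.0152) with 85.32, 95.08 and 86.67 FPKM in KO N2B27, against 111.20, 102.24 and 112.33 in KO ES cells, and had -0.12 ± 0.12 in WT with 107.79 and 97.40 FPKM in N2B27, against 108.69 and 114.05 in ES cells. The difference between the genotypes in this change was not called.

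Trp53 was among the members that fell in N2B27 in both genotypes. The KO libraries had 217.53 to 242.83 FPKM in N2B27, against 420.69 to 439.29 FPKM in ES cells (log2 difference -0.93 ± 0.10, limma adjusted p = 7.06e-07), and the WT libraries 232.55 and 254.47 in N2B27, against 410.23 and 452.67 in ES cells (-0.82 ± 0.12, adjusted p = 2.59e-05). Mdm2 rose in the same libraries, 2.12-fold in KO (1.06 ± 0.09) and 2.61-fold in WT (1.36 ± 0.12), and Trp73 rose to 4.05 FPKM in KO N2B27, against 0.60 in KO ES cells, and to 3.45 FPKM in WT N2B27, against 0.595 in WT ES cells. Mdm4 fell by 0.34 in KO and by 0.47 in WT. Wrap53, the overlapping gene of Trp53, fell as well, by 0.99 in KO and by 0.64 in WT.

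The genes of cell death moved in both directions. Bbc3 rose in N2B27 to 30.43 to 36.90 FPKM in KO, against 9.91, 9.44 and 13.11 FPKM in KO ES cells (log2 difference 1.52 ± 0.13), and to 41.54 and 44.27 FPKM in WT, against 10.57 and 12.99 FPKM in WT ES cells (1.79 ± 0.16). Pmaip1, a BH3-only gene like Bbc3, had the largest decrease of the 34 members in both genotypes on the log2(FPKM + 1) scale, whereas by the ratio of mean FPKM Gdf15 fell further, to 0.0985 of the ES mean in KO and 0.19 in WT, against 0.119 in KO and 0.265 in WT for Pmaip1. It had 1.5 to 2.28 FPKM in KO N2B27, against 13.35, 17.31 and 14.18 FPKM in KO ES cells (-2.52 ± 0.14, limma adjusted p = 7.18e-10), and 3.15 and 4.06 FPKM in WT N2B27, against 13.74 and 13.51 FPKM in WT ES cells (-1.67 ± 0.17, adjusted p = 8.19e-07). Trp53inp1, a nuclear protein of stress and autophagy, had 53.98, 49.66 and 59.78 FPKM in KO N2B27, against 10.02, 12.25 and 14.06 in KO ES cells, and 59.66 and 68.87 FPKM in WT N2B27, against 15.24 and 13.01 in WT ES cells. It rose by 2.09 ± 0.14 in KO and 2.11 ± 0.18 in WT.

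Apaf1, Perp (a membrane protein of desmosomes), Aen (a nuclease) and Ei24 also rose in both genotypes, from 0.39 ± 0.08 for Ei24 in KO up to 1.80 ± 0.14 for Perp in KO. Bax was called lower in KO N2B27 against KO ES cells at -0.24 ± 0.10 (limma adjusted p = 0.0349) and had -0.13 ± 0.12 in WT. All 3 death receptors rose in both genotypes. Tnfrsf10b rose 2.69-fold in KO (1.37 ± 0.12) and 3.01-fold in WT (1.52 ± 0.14), Eda2r 2.66-fold in KO and 2.99-fold in WT, and Fas to a mean of 0.890 FPKM in KO N2B27, against 0.157 in KO ES cells, and to 1.615 FPKM in WT N2B27, against 0.130 in WT ES cells.

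Metabolism and stress was the role with the most decreases, as 4 of its 6 members fell in N2B27 and 2 rose, in both genotypes. Sesn1 and Sesn2 encode related sestrins, and they went in opposite directions. Sesn1 had 4.62, 4.30 and 3.96 FPKM in KO N2B27, against 11.35, 11.05 and 11.12 FPKM in KO ES cells (-1.2 ± 0.08), and 4.03 and 4.54 FPKM in WT N2B27, against 9.80 and 10.78 in WT ES cells (-1.10 ± 0.09). Sesn2 rose 2.26-fold in KO (1.15 ± 0.08) and 2.51-fold in WT (1.30 ± 0.10). Gdf15 fell by 2.03 in KO and by 1.60 in WT. Tigar, a phosphatase that slows glycolysis, had 8.58, 7.37 and 10.35 FPKM in KO N2B27, against 17.29, 16.18 and 17.49 in KO ES cells, and 8.10 and 8.5 in WT N2B27, against 17.51 and 18.53 in WT ES cells. Fdxr, the reductase of mitochondrial ferredoxin, fell by 0.77 in KO and by 0.54 in WT, and Ak1 rose by 1.53 in both.

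Of the DNA repair genes, Polk and Rrm2b, a subunit of ribonucleotide reductase, rose in both genotypes, with Polk at 0.71 ± 0.12 in KO and 0.98 ± 0.14 in WT. Xpc and Ddb2, which recognise ultraviolet damage, were not called in either genotype. Some of the smaller calls in N2B27 were lost without single libraries or with another scaling or filter. In KO, Bax had an adjusted p of 0.103 without ES replicate 1, 0.0774 without ES replicate 3 and 0.162 without N2B27 replicate 3, and Gtse1 had 0.0517 without ES replicate 3 and 0.0544 without N2B27 replicate 1 (all limma). In WT, Mdm4 had 0.0917 without ES replicate 1 and 0.0751 without N2B27 replicate 1, and Rrm2b had 0.0563 without ES replicate 2. With TPM scaling Bax (adjusted p = 0.194), Gtse1 (0.105) and Mdm4 (0.113) were not called in KO, and Bax had 0.053 with no filter on low values.

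**Figure D4:**
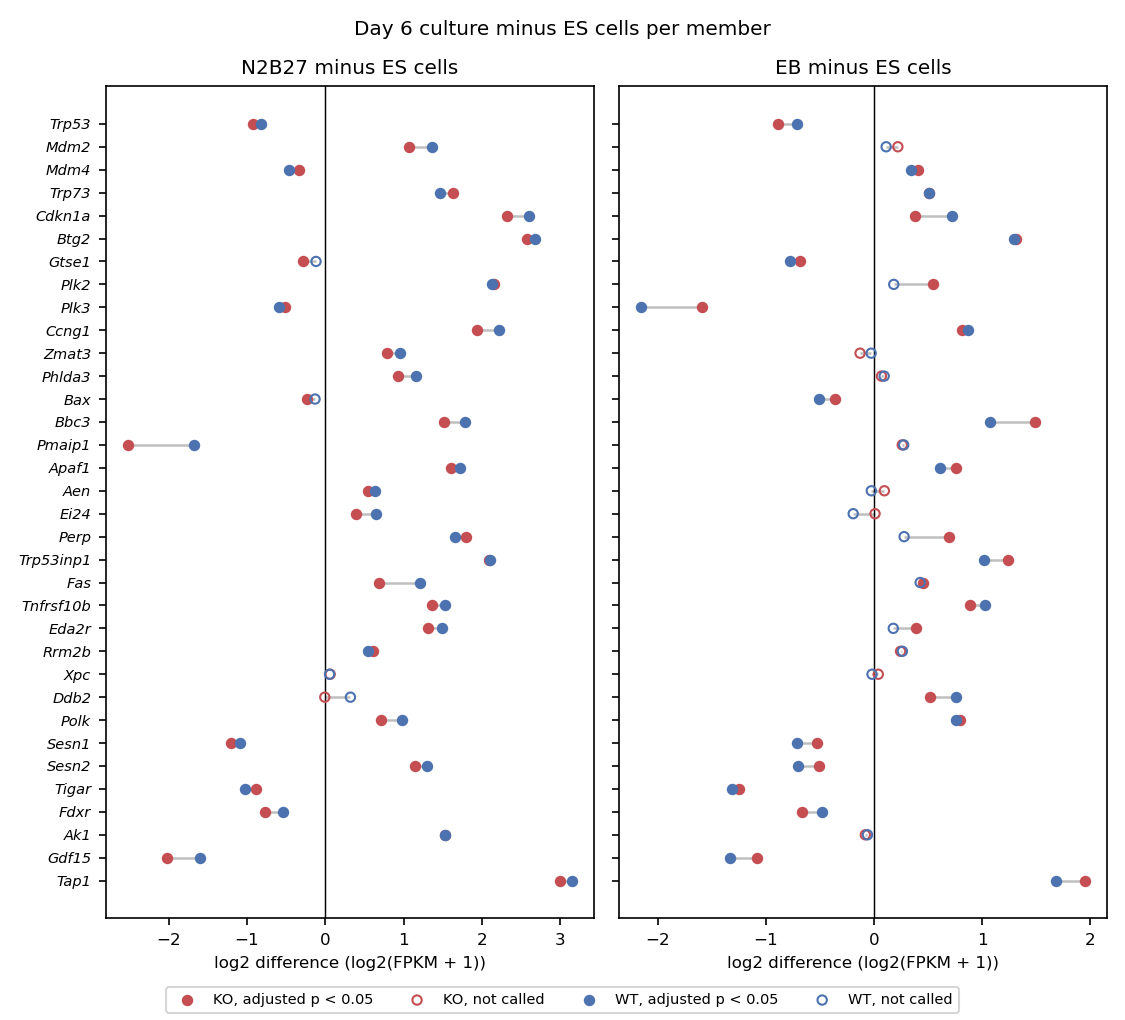
Log2 difference between day 6 cultures and ES cells on the log2(FPKM + 1) scale for each of the 34 members, N2B27 on the left and EBs on the right, KO in red and WT in blue, filled where limma's adjusted p is below 0.05 and open where it is not; each grey line joins the genotypes of 1 gene. Tap1, Btg2 and Cdkn1a lie furthest to the right in N2B27, and Pmaip1 lies at -2.52 in KO and -1.67 in WT.

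In EBs against ES cells, 25 members were called in KO and 21 in WT, against 32 in KO and 30 in WT in N2B27. In KO EBs, 16 members rose and 9 fell, where 36.2% of all genes rose and 28.5% fell, and in WT EBs 12 rose and 9 fell, where 35.8% rose and 23.6% fell. By at least 2-fold, 4 rose and 3 fell in KO, and 5 rose and 3 fell in WT, again without a count of all genes at this cut. The median log2 difference was 0.25 over the members and 0.06 over all genes in KO, and 0.18 over the members and 0.11 over all genes in WT, so the shares and medians were nearer to those of all genes than in N2B27.

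Tap1 had the largest increase in both genotypes, with 5.34, 5.53 and 6.84 FPKM in KO EBs and 6.39 and 4.47 FPKM in WT EBs (log2 difference against ES cells 1.95 ± 0.12 in KO and 1.68 ± 0.15 in WT). Btg2 rose 2.64-fold in KO EBs (1.31 ± 0.09) and 2.59-fold in WT EBs (1.29 ± 0.11). Bbc3 had 29.40, 35.06 and 31.50 FPKM in KO EBs and 29.44 and 22.35 in WT EBs, above every ES library (1.49 ± 0.13 in KO and 1.07 ± 0.16 in WT). Trp53inp1 had 28.45, 24.29 and 38.03 FPKM in KO EBs and 29.47 and 29.41 in WT EBs, and Tnfrsf10b had 30.91, 34.53 and 36.06 in KO EBs and 37.67 and 36.88 in WT EBs. Both rose in both genotypes, Trp53inp1 by 1.24 in KO and 1.01 in WT, and Tnfrsf10b by 0.89 in KO and 1.03 in WT. Cdkn1a rose less than in N2B27, by 0.37 ± 0.10 in KO (limma adjusted p = 0.00389) and 0.72 ± 0.12 in WT (adjusted p = 0.000137), and Ccng1 by 0.82 ± 0.16 in KO and 0.86 ± 0.19 in WT.

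The decreases in EBs were led by Plk3, which had 7.07 to 7.63 FPKM in KO EBs, against 22.35 to 24.80 FPKM in KO ES cells (log2 difference -1.59 ± 0.14, limma adjusted p = 2.67e-07), and 5.16 and 5.36 FPKM in WT EBs, against 26.50 and 27.11 FPKM in WT ES cells (-2.15 ± 0.17, adjusted p = 1.38e-07). Tigar had 8.10, 5.18 and 6.72 FPKM in KO EBs and 6.28 and 7.01 in WT EBs, and fell by 1.25 in KO and by 1.32 in WT. Gdf15 had 1.48, 2.81 and 1.47 FPKM in KO EBs and 1.52 and 1.11 in WT EBs, and fell by 1.08 in KO and by 1.33 in WT. Gtse1 had 74.66, 55.52 and 72.60 FPKM in KO EBs and 64.95 and 64.38 in WT EBs, all below the ES libraries. Trp53 fell by 0.88 in KO and by 0.71 in WT, and Bax by 0.36 in KO and by 0.50 in WT. Of metabolism and stress, 5 of 6 members fell in each genotype, Sesn2 among them, which had risen in N2B27.

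Mdm2 was not called in EBs in either genotype, at 0.22 ± 0.09 in KO (limma adjusted p = 0.0525) and 0.11 ± 0.12 in WT (adjusted p = 0.420). Pmaip1 had 19.71, 14.76 and 20.02 FPKM in KO EBs and 15.23 and 18.28 in WT EBs and was not called either. Some calls in EBs were lost or gained without single libraries or with another scaling, filter or fit. In KO, Eda2r had an adjusted p of 0.102 without ES replicate 1, 0.0506 without ES replicate 2 and 0.130 without EB replicate 3, and Fas had 0.0624 without ES replicate 1. Eda2r also had 0.105 with TPM scaling. Mdm2 was called in KO at 0.0262 without ES replicate 3, 0.0454 without EB replicate 1, 0.0461 with median-ratio scaling and 0.0443 when only the compared groups were fitted. In WT, Trp73 was called at an adjusted p of 0.0242, but had 0.0634 to 0.0966 without any 1 of the 4 WT libraries of ES cells and EBs. Mdm4 was called at 0.0445 in WT, but had 0.326 without ES replicate 2, 0.177 without EB replicate 1 and 0.0707 without EB replicate 2, and also 0.148 with TPM scaling, 0.0732 with median-ratio scaling and 0.0728 with no filter. Fas was not called in WT (0.0548), but had 0.0172 with a pseudocount of 0.1, 0.0472 with TPM scaling and 0.0141 when only the compared groups were fitted. Fdxr had 0.0516 without WT ES replicate 2.

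Other genes of the pathway were read from lists chosen with earlier results of these data known, and few of them were called between the genotypes. By limma, none of 17 tested regulators of p53 or 11 genes of nucleolar stress was called between KO and WT in any culture. The latter encode nucleolar and ribosomal proteins, most of which are known to bind MDM2. Nor was any of 22 caspases and their regulators or 13 further CDK inhibitors and G1 genes called in N2B27, EBs or ES cells. In N2B27, 13 of 24 further p53 targets lay below 0 in KO minus WT, near the 55.6% of all genes, and their median was -0.09. In KO EBs 2 of these 24 were called lower, where 1.62% of all genes were: Rprm, an inducer of G2 arrest, averaged 2.79 FPKM in KO EBs and 5.89 in WT EBs (log2 difference -0.83 ± 0.19, adjusted p = 0.0359), and Trp53i11 averaged 20.3 FPKM in KO EBs and 29.4 in WT EBs (-0.52 ± 0.09, adjusted p = 0.00745). Of 12 genes of the BCL2 family outside the 34, Mcl1, which protects from cell death, was called higher in KO EBs, where 0.65% of all genes were, at 108 FPKM on average in KO and 78.7 in WT (0.45 ± 0.10, adjusted p = 0.0288). Of 12 genes of G2 and M phase, Cenpf, a kinetochore protein, was called higher in KO N2B27, where 0.101% of all genes were called in either direction, at 17.8 FPKM on average in KO and 10.2 in WT (0.75 ± 0.12, adjusted p = 0.0400). None of these lists had any further call between the genotypes in the 3 cultures.

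Between cultures the counts of these lists are to be read against those of all genes, of which 43.5% rose and 33.2% fell in KO N2B27 and 41.5% rose and 29.2% fell in WT N2B27. In N2B27 against ES cells, 9 of the 12 genes of G2 and M phase fell in each genotype, Bub1b, a spindle checkpoint kinase, by 1.21 ± 0.09 in KO and by 1.24 ± 0.11 in WT, while 0 rose in KO and 1 rose in WT. Of the 11 genes of nucleolar stress, 8 fell in KO N2B27 and 6 in WT N2B27 and 0 rose, with Gnl3, which encodes nucleostemin, at -1.12 ± 0.11 in KO and -1.09 ± 0.13 in WT, whereas in EBs 8 rose and 2 fell in KO, where 36.2% of all genes rose and 28.5% fell, and 7 rose and 2 fell in WT, where 35.8% rose and 23.6% fell. Of the BCL2 family, 7 rose and 4 fell in KO N2B27 and 7 rose and 3 fell in WT N2B27, with Bcl2, which blocks BAX, at 1.75 ± 0.09 in KO and 1.89 ± 0.11 in WT. Of the 22 caspases and regulators, 10 rose and 7 fell in KO N2B27, and 8 rose and 6 fell in WT N2B27, near the shares of all genes. The further p53 targets had 10 that rose and 4 that fell of 24 in KO N2B27, and 13 that rose and 3 that fell in WT N2B27, led by Thbs1, the matrix protein thrombospondin, at 6.73 ± 0.26 in KO and 6.48 ± 0.32 in WT. The p53 regulators had 3 that rose and 7 that fell of 17 in KO N2B27, and 4 that rose and 6 that fell in WT N2B27, among them Trp53bp1, a DNA damage protein, which rose by 1.66 ± 0.07 in KO and 1.68 ± 0.08 in WT. Of the 13 CDK inhibitors and G1 genes, 7 rose and 3 fell in KO N2B27, and 6 rose and 3 fell in WT N2B27. Cdkn1c, which encodes the CDK inhibitor p57, rose by 3.18 ± 0.26 in KO and by 1.99 ± 0.32 in WT. The difference between the genotypes in this change was not called for any of the 13.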

How the data were processed

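Polyadenylated RNA of 15 libraries was sequenced. Trizol extraction, oligo(dT) selection, fragmentation and random hexamer priming are stated per the labels' protocols. The authors deposited 1 table of FPKM values with 2 decimals, per the file headers. Per the submitters' processing notes, Bowtie2, RSEM and mm10 were used, and neither their roles nor versions, annotation or strand setting are stated there. RSEM divides ambiguous fragments between genes by estimation. Of the 18762 genes, 18717 IDs matched RefSeq of GRCm38.p6, which gave coordinates, and 28 symbols were restored or missing.

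Groups were taken from the titles. Depth was estimated as the total giving the largest share of whole fragments (within 0.1) among low values of short genes with 1 transcript. This share was 47.9% to 63.0% of 92 to 121 values per library. The median share over totals from 5000000 to 40000000 was 14.2% to 16.8%. Only totals of at least 10000000 were accepted, and the low values were picked at a preset total. FPKM are not counts, so no count test was run. Genes with at least 1 FPKM in at least 2 libraries were tested with limma 3.58.1 in R 4.3.3 (mean-variance trend, 6 group means in 1 fit) on log2(FPKM + 1), with Benjamini-Hochberg adjustment over 12929 genes at 0.05. Fold changes on this scale understate changes of low genes. The line comparison used the mean of the 3 cultures of each library name. The script was tested on simulated data.

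The 34 members and all lists were chosen with earlier results of these data known. Values per library are given for Trp53, Mdm2, Cdkn1a, Bax and Ccng1, for members called between genotypes, and for the 4 called members per direction with the largest change in each culture comparison; other members named in the comparisons of genotypes were chosen after their values were seen. Of other lists, up to 3 called genes with the largest change could be named. Alternatives were a pseudocount of 0.1, no filter, TPM and median-ratio scaling, a fit of the compared groups only, a replicate block and leaving out each library. One result is not reported here.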

Additional observations from a re-analysis of the deposited data

How the results depend on the processing

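Of 109 called values of single members, 1205 alternatives kept the direction, 1169 kept the call and 36, in 11 of the values, lost it. The EB count of KO against WT, 1 called member, was 0 with median-ratio scaling, with only the EB libraries fitted, and without each EB library (0 to 0). Leaving out 1 library gave 0 to 2 called members for KO against WT in N2B27, and 0 to 2 for the genotype difference in N2B27 against EBs. The shares of all genes called in these fits were not counted. Members with every KO library below every WT library were 4 with median-ratio scaling and 7 to 15 without 1 library in ES cells (7 in all), 2 and 5 to 8 in EBs (4 in all), and 18 to 25 under all alternatives in N2B27 (21 in all). Leaving out a library can only keep or raise these numbers, and the share of all genes likewise, so only another scaling could lower them. The members' median of KO minus WT ranged from -0.28 to -0.19 in N2B27, and from -0.03 to 0.08 in EBs.

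The other sign appeared in 237 of 3351 alternatives of uncalled values, each at most 0.174 in size as reported. Of these, Trp53 in ES cells (KO minus WT) was -0.004 with TPM and -0.003 with median-ratio scaling, and -0.069 to 0.073 without 1 library. Without 1 library, KO minus WT ranged from -0.191 to 0.086 for Mdm2 in ES cells, -0.186 to 0.009 for Bax in ES cells and -0.025 to 0.144 for Bax in EBs, and Mdm2 in WT EBs against ES cells from -0.026 to 0.251. The genotype difference in EBs against ES cells was 0.007 for Ccng1 with median-ratio scaling and -0.204 to 0.150 without 1 library, and -0.030 to 0.247 for Mdm2. That in N2B27 against EBs was -0.058 to 0.178 for Trp53 and -0.060 to 0.188 for Cdkn1a. The cause was not tested.

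The labels do not say that equal library names mark the same cells, and deviations of same-named libraries did not correlate in every pair (r from -0.178 to 0.265 in KO). With a replicate block, 26 members were called in KO EBs against ES cells (25 without it), where Mdm2 was called (adjusted p = 0.0423), and 20 in WT (21 without it), where Mdm4 was not (0.0541). Ak1 in EBs kept its call (0.0415), and no count moved by over 1.5 times. At the estimated depth, Fas in ES cells, at 0.04 to 0.32 FPKM, rests on few fragments, and Trp73 there, at 0.48 to 0.74 FPKM, on more.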
